A study of Mus musculus with 4 samples.

Results

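The proteasome is the protease complex that degrades proteins tagged with ubiquitin. Its genes were examined in RNA sequencing of macrophages sorted from the liver of C57BL6J mice aged 8 wk. The members were all rows of the deposited count table whose mouse symbol is Psma, Psmb, Psmc, Psmd, Psme, Psmf or Psmg followed by a number, which gave 48 of 29247 genes. Cxcr4+ macrophages, collected 72 h after mice had received acetaminophen (APAP) by intraperitoneal injection at 300 mg/kg, gave 3 libraries. APAP is a painkiller that is toxic to the liver in overdose. Control macrophages gave 1 library, for which the labels name neither an agent nor a Cxcr4 gate, so drug and sort cannot be told apart. Nothing in the labels ties the APAP libraries to different mice, and p-values therefore measure only the spread between samples, which could be technical.

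The barrel of the proteasome, the 20S core, is built of alpha rings that guard the entrance and beta rings that hold the proteases. A 19S regulatory cap recognises ubiquitin, unfolds the substrate with a ring of ATPases and feeds it into the barrel. In cells exposed to interferon gamma, and constitutively in many cells of the immune system, the 3 catalytic beta subunits Psmb5, Psmb6 and Psmb7 are replaced in new complexes by Psmb8, Psmb9 and Psmb10. The result is the immunoproteasome, which favours peptides that fit MHC class I molecules. The PA28 activator made of Psme1 and Psme2 is induced by the same cytokine and can take the place of the cap.

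The libraries held 48282283, 52043418 and 56702837 counts after APAP, against 49950909 in the control. Levels are given as CPM, read counts scaled to a common library size with trimmed mean of M-values (TMM) factors. The sort marker Cxcr4 had 84.5, 132 and 101 CPM after APAP, against 41.3 CPM in the control (log2 fold change 1.36, SE 0.26, adjusted p = 0.00978 in the edgeR test used throughout). All 7 macrophage markers were present in every library, with a summed level of 16409 to 19159 CPM after APAP and 19105 CPM in the control. Of the 7, 3 fell (Adgre1 by 0.55, Cd68 by 0.56 and Fcgr1 by 0.72 on the log2 scale) and 1 rose (Mertk, 0.56), while Csf1r and Lyz2, which make up most of the sum, were at -0.42 and 0.33 and did not pass. The part of these shifts in the proteasome values was not tested. Every pair of libraries differed by more than sampling noise (chi-square per degree of freedom 17.1 to 58.4 within the APAP group), and none was counted as a duplicate.

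Promoter windows of the 3 inducible beta subunits, and of the constitutive counterparts Psmb5 and Psmb6, are printed here because the comparison of inducible with constitutive subunits turns on these genes. Each is the 250 bases before the annotated start, from the RefSeq promoter table for GRCm38.p6, and not the build mm39 of the counts. Capitals mark a match to the interferon gamma-activated site motif, GAS (TTCNNNGAA), in Psmb8, and to the antioxidant response element bound by NFE2L1 and NFE2L2 (TGACNNNGC) in Psmb5 and Psmb6. Psmb9 and Psmb10 had neither. No window was on hand for Psmb7, the counterpart of Psmb10, so that pair cannot be compared here.
Psmb8: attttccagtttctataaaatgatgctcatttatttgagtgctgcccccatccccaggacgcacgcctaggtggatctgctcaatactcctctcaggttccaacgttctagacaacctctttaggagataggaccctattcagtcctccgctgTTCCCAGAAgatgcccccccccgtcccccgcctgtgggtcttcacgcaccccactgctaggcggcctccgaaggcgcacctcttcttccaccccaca
Psmb5: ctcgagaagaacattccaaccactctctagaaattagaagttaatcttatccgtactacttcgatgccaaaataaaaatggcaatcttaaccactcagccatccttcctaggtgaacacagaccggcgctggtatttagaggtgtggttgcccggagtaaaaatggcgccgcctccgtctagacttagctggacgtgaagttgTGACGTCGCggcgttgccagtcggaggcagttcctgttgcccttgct
Psmb9: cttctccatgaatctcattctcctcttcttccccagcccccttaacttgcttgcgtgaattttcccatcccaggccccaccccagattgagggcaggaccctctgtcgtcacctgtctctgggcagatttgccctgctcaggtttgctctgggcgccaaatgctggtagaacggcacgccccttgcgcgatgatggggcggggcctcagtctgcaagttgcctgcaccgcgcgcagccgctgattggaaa
Psmb6: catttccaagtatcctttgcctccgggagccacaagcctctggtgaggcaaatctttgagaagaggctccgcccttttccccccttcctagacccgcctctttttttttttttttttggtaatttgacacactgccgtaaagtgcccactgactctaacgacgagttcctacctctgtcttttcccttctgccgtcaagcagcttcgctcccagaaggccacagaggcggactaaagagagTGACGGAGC
Psmb10: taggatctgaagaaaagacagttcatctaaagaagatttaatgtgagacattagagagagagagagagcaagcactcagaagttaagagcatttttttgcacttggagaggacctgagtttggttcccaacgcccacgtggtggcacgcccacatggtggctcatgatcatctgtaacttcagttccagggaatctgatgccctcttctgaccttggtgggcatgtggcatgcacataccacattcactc
These windows lie at chr17:34197945-34198194 for Psmb8 on the plus strand, chr14:54617996-54618245 for Psmb5 on the minus strand, chr17:34187331-34187580 for Psmb9 on the minus strand, chr11:70525107-70525356 for Psmb6 on the plus strand and chr8:105938393-105938642 for Psmb10 on the minus strand. A window was on hand for 40 members. Both strands were searched, and the motifs may overlap each other. A member counted if any of its windows matched, and some had an additional window, whereas the shares over all genes count single windows. The antioxidant response element was found in 5 members (12.5%), against 10.2% of 32851 windows of all genes, and the GAS motif in 2 (5.0%), against 7.0%. The core of the interferon-stimulated response element, GAAANNGAA, was found in 3 members (7.5%), against 7.1% of all windows, and none of these 3 (Psmb3, Psmd4 and Psmd9) is an inducible subunit. A form extended by a further A at its 3′ end was found in the same 3 members, against 3.0% of all windows. The CCAAT box was found in 14 members (35.0%), against 33.8% of all windows. A match is a run of letters and not a site shown to be bound.

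Proteasome transcripts were lower in APAP Cxcr4+ macrophages across most of the complex. The 48 genes took 0.326%, 0.277% and 0.274% of all reads after APAP, against 0.417% in the control, and their summed level was 3129, 2687 and 2647 CPM after APAP, against 4637 CPM. Of the 47 genes that passed the filter on low counts (Psmb11 did not), 35 fell and 1 rose at an adjusted p under 0.05 (edgeR quasi-likelihood test, Benjamini-Hochberg over 18715 genes), while 18.9% of all genes tested fell and 25.4% rose. The median log2 fold change was -0.73 over the 47 genes and 0.09 over all genes tested. The control lay above all 3 APAP libraries for 42 of the 47, where this held for 39.2% of all genes tested. It lay below them for 1, Psme4, where this held for 45.7%. With a single control, groups without overlap were thus common over all genes. It lay inside their range for Psmc6, Psmd1, Psmd14 and Psmd5.

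The spread rests on the 3 APAP libraries, with the single control assumed to vary like them. Without the first APAP library 43 members fell and 1 rose (22.7% and 28.1% of all genes), and without the second 25 fell and 1 rose (11.0% and 16.2%). When glmTreat tested for changes beyond 0.5 on the log2 scale, 18 members fell, against 7.99% of all genes. The log2 fold change went up with the length of the transcript. Spearman's rho was 0.265 across 18644 genes and 0.618 across the 47 members, which share the same 4 libraries and are not independent replicates. Between pairs of APAP libraries the values over all genes were -0.05 to -0.02. Most proteasome transcripts are short, with a median annotated length of 1440 bases against 2454 for all genes tested. With a trend over length and GC content taken out as an offset in the same edgeR fit, 22 members fell and 0 rose (16.1% and 17.8% of all genes), and the median was -0.39. The offset assumes that the whole trend is technical, which was not tested.

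The 3 inducible beta subunits all fell, to average levels of 0.453, 0.487 and 0.430 of the control for Psmb8, Psmb9 and Psmb10. Over all genes tested, 18.9% fell. Psmb8, which replaces the chymotrypsin-like subunit, stood at 91.6, 82.4 and 73.6 CPM in APAP Cxcr4+ macrophages and 182 CPM in the control. Psmb9, which replaces the caspase-like subunit, had 73.9, 65.2 and 59.5 CPM after APAP and 136 CPM in the control. Psmb10, which replaces the trypsin-like subunit, had 90.4, 82.7 and 78.5 CPM after APAP and 195.0 CPM in the control. For each of the 3 genes the APAP libraries lay close together and far under the control. The control lay above every APAP library for 39.2% of all genes tested. The log2 fold changes were -1.14 for Psmb8 (SE 0.13, adjusted p = 0.00212), -1.04 for Psmb9 (SE 0.13, adjusted p = 0.00269) and -1.22 for Psmb10 (SE 0.10, adjusted p = 0.00119). With the length and GC offset they were -0.80, -0.60 and -0.77, and all passed the test (adjusted p = 0.00892, 0.0199 and 0.00559).

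The constitutive catalytic subunits were less uniform. Psmb5, the chymotrypsin-like protease, had 38.6, 30.8 and 30.03 CPM in APAP Cxcr4+ macrophages and 67.9 CPM in the control (log2 fold change -1.03, SE 0.15, adjusted p = 0.00458). Psmb6, the caspase-like protease, had 113.5, 80.9 and 77.9 CPM after APAP and 151 CPM in the control (-0.73, SE 0.21, adjusted p = 0.0374). Psmb7, the trypsin-like protease, had 36.8, 30.5 and 28.8 CPM after APAP and 42.9 CPM in the control. The control lay above every APAP library for each of the 3, as it did for 39.2% of all genes tested. Psmb7 came closest and did not pass the test (-0.42, SE 0.15, adjusted p = 0.0688). It passed without the first APAP library (-0.53, adjusted p = 0.00468), and Psmb6 did not pass without the second (-0.65, adjusted p = 0.105). With the length and GC offset Psmb5 was at -0.53 (adjusted p = 0.0493), Psmb6 at -0.20 (adjusted p = 0.496) and Psmb7 at -0.09 (adjusted p = 0.686).

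**Figure D1:**
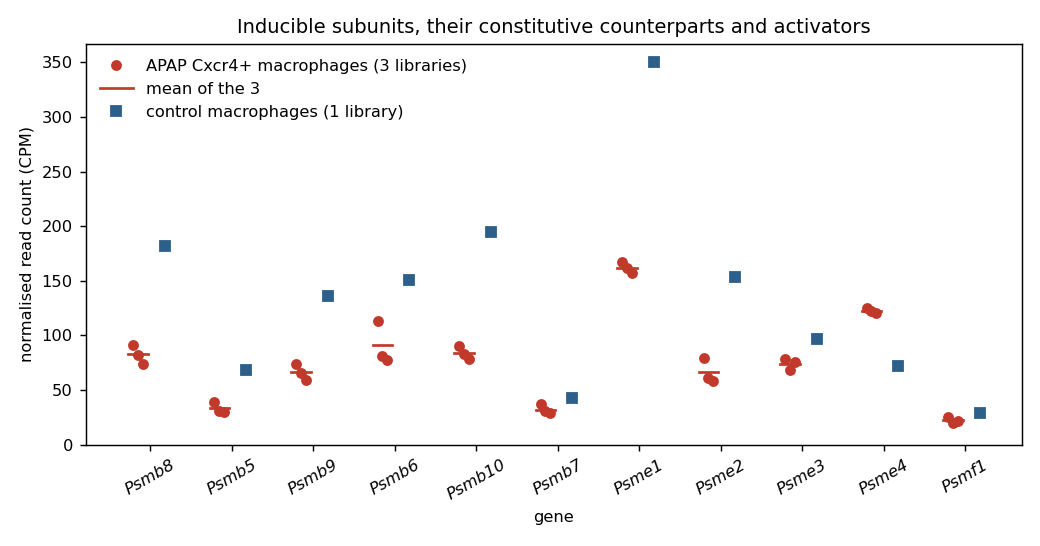
Normalised read counts (CPM) of the inducible subunits, the constitutive subunits they replace, the activators Psme1 to Psme4 and the inhibitor Psmf1 in each library. Circles are the 3 APAP Cxcr4+ libraries with their mean as a bar, and squares the single control library. The control lies above every APAP library for each gene except Psme4, where it lies below. Over all genes tested, it lay above them for 39.2% and below them for 45.7%.

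Ratios taken within a library need no scaling between libraries, and they addressed whether the inducible subunits fell further than their counterparts. Psmb10 stood to Psmb7 as 2.46, 2.71 and 2.72 to 1 in APAP Cxcr4+ macrophages and as 4.54 to 1 in the control, a difference of -0.79 on the log2 scale, against an SD of 0.08 among the APAP libraries. Psmb9 stood to Psmb6 as 0.651, 0.806 and 0.764 to 1 after APAP and as 0.904 to 1 in the control (difference -0.29, SD 0.16). Psmb8 stood to Psmb5 as 2.37, 2.67 and 2.45 to 1 after APAP and as 2.68 to 1 in the control (difference -0.10, SD 0.09). The first pair therefore differed by many times the spread between APAP libraries, and in read counts the last by about as much as that spread. From the fit with the length and GC offset, an alternative added after the data were seen, the differences were -0.68 for Psmb10 over Psmb7, -0.40 for Psmb9 over Psmb6 and -0.27 for Psmb8 over Psmb5. The 2-sided exact permutation p was 0.25 for Psmb10 over Psmb7 and 0.5 for the other pairs, and 0.25 is the smallest that 3 libraries against 1 allow.

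Summed over the 3 pairs, inducible subunits took 57.5%, 61.8% and 60.7% of the catalytic beta reads after APAP, against 66.2% in the control, with exact 95% binomial intervals of 56.9 to 58.2, 61.1 to 62.5, 60.1 to 61.4 and 65.7 to 66.7 that cover counting error only. Per kilobase of annotated transcript the shares were 45.4%, 50.0% and 48.9% after APAP and 54.5% in the control. The inducible share was thus lower in each APAP library, on either scale. The log2 ratio of inducible to constitutive catalytic reads differed by -0.39 (SD 0.13, exact permutation p = 0.25). With all 14 constitutive subunits of the core as the partner it differed by -0.23 (SD 0.05, exact permutation p = 0.25).

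Per kilobase, Psmb6 was the most abundant of the 6 catalytic genes in each library, with 142, 101 and 97.6 CPM per kilobase after APAP and 189 in the control. Psmb10 was next, with 69.0, 63.1 and 59.8 CPM per kilobase after APAP and 149 in the control. Psmb8 had 56.3, 50.6 and 45.2 after APAP and 112 in the control, and Psmb9 had 54.7, 48.2 and 44.0 after APAP and 101 in the control, in the same unit. Psmb8 and Psmb9 thus stood within their spread of each other after APAP. Psmb5 had 42.9, 34.3 and 33.4 CPM per kilobase after APAP and 75.5 in the control, and Psmb7 was lowest with 31.7, 26.3 and 24.8 after APAP and 37.0 in the control. The order of the 6 genes was the same in all 4 libraries.

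The activator subunits Psme1 and Psme2 also fell. Psme1 had 167, 161 and 157 CPM in APAP Cxcr4+ macrophages and 350.4 CPM in the control, and per kilobase was the most abundant of the 5 inducible members in each library. Psme2 had 79.3, 61.3 and 58.6 CPM after APAP and 154 CPM in the control. For both genes the control lay above every APAP library, as it did for 39.2% of all genes tested. The log2 fold changes were -1.12 (SE 0.09, adjusted p = 0.00107) for Psme1 and -1.21 (SE 0.17, adjusted p = 0.00389) for Psme2. With the length and GC offset they were -0.63 and -0.73 (adjusted p = 0.00595 and 0.0259). Reads of Psme2 may be shared with the similar gene Psme2b, which had 47.98, 38.3 and 40.7 CPM after APAP and 61.5 CPM in the control (-0.54, SE 0.14, adjusted p = 0.0264). Relative to the 7 alpha subunits, summed counts of Psme1 and Psme2 stood at 0.5, 0.516 and 0.5002 after APAP and 0.5804 in the control. The log2 difference was -0.20 (SD 0.03, exact permutation p = 0.25), and -0.12 with the Psme2b reads added. Psme2 and Psme2b without Psme1 stood to the alpha subunits as 0.258, 0.231 and 0.231 to 1 after APAP. The control, at 0.248 to 1, lay inside that range (log2 difference -0.05, SD 0.09). In the fit with the length and GC offset, the median was -0.682 for Psme1 and Psme2 and -0.655 for the alpha subunits.

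The other activators went different ways. Psme4 encodes PA200, a large monomeric cap known from nuclei, DNA repair and spermatogenesis. It had 125, 122 and 120.3 CPM in APAP Cxcr4+ macrophages and 71.9 CPM in the control, with the 3 APAP libraries almost level. It was the only member that rose (log2 fold change 0.77, SE 0.09, adjusted p = 0.0023), and in the DESeq2 and limma-voom tests it also rose. Its transcript, at 6491 bases, is the longest of the 47, and with the length and GC offset its value was 0.18 (adjusted p = 0.158). Within a library, Psme4 stood to the 17 subunits of the 19S cap as 0.0938, 0.110 and 0.108 to 1 after APAP. In the control it stood as 0.0438 to 1. This ratio does not take out the trend over transcript length. With the length and GC offset the median of the cap was -0.28, beside 0.18 for Psme4.

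Psme3 encodes PA28 gamma, a nuclear activator that degrades substrates without ubiquitin. It had 78.5, 68.1 and 75.4 CPM in APAP Cxcr4+ macrophages and 96.8 CPM in the control and fell by a small amount (-0.39, SE 0.11, adjusted p = 0.0321), but did not pass without the second APAP library (adjusted p = 0.108). Psmf1, the inhibitor PI31, had 24.8, 20.01 and 21.9 CPM after APAP and 29.3 CPM in the control. The control value lay above every APAP library, as it did for 39.2% of all genes tested. Psmf1 did not pass (-0.40, SE 0.15, adjusted p = 0.0705), except without the first APAP library (adjusted p = 0.0132) and with the length and GC offset (-0.63, adjusted p = 0.0232).

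**Figure D2:**
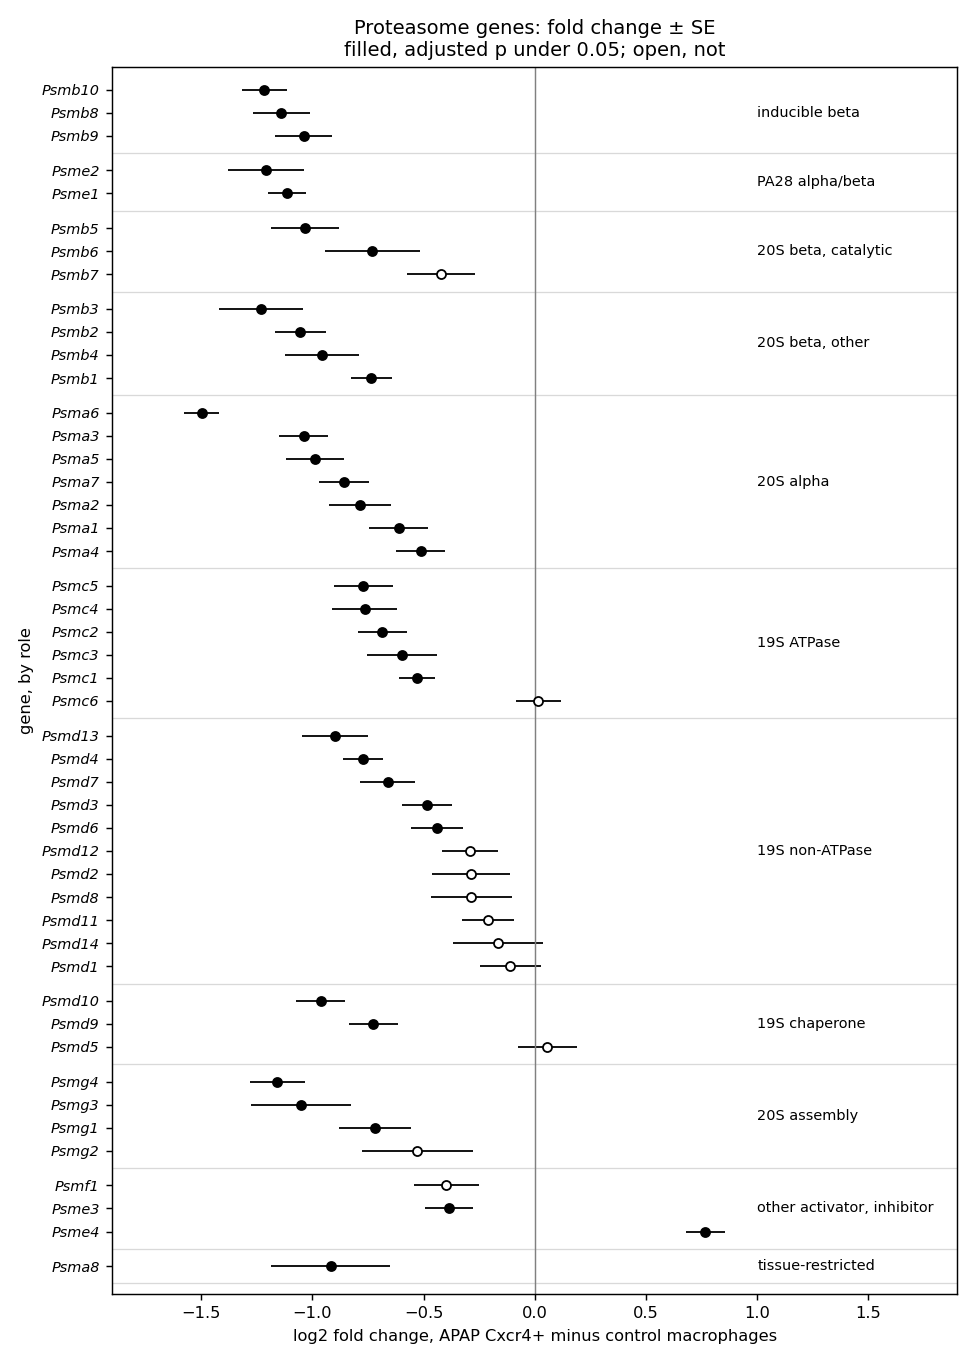
Log2 fold changes of the 47 tested genes, APAP Cxcr4+ minus control macrophages, grouped by role; bars are ± 1 SE and filled points passed the edgeR test at an adjusted p under 0.05. The 5 inducible genes lie between -1.22 and -1.04, the 19S non-ATPase subunits between -0.90 and -0.11, and Psme4 alone lies well to the right of 0.

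All 7 alpha subunits of the 20S core fell, with log2 fold changes from -1.50 to -0.51, where 18.9% of all genes tested fell. Psma6 had 78.6, 80.0 and 76.3 CPM in APAP Cxcr4+ macrophages and 221 CPM in the control, the lowest log2 fold change of all members (-1.50, SE 0.08, adjusted p = 0.000841). The APAP libraries agreed closely there, and the value was -1.20 with the length and GC offset (adjusted p = 0.00163). Psma3 had 52.1, 44.5 and 47.5 CPM after APAP and 98.8 CPM in the control (-1.04, SE 0.11, adjusted p = 0.00184). At the other end of the ring's range stood Psma1 with 73.1, 59.4 and 61.4 CPM after APAP and 98.9 CPM in the control (-0.61, SE 0.13, adjusted p = 0.0151). Psma4 had 66.4, 58.3 and 57.8 CPM after APAP and 86.8 CPM in the control (-0.51, SE 0.11, adjusted p = 0.0145). Psma2, Psma5 and Psma7 fell by 0.79, 0.99 and 0.86 on the log2 scale and also fell with the length and GC offset. The control lay above every APAP library for all 7, where this held for 39.2% of all genes tested. Psma1 and Psma4 did not pass without the second APAP library (adjusted p = 0.0588 and 0.0673) or with the length and GC offset (adjusted p = 0.0618 and 0.0988).

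The 4 beta subunits without protease activity fell as well. Psmb3 had 41.3, 31.6 and 29.0 CPM in APAP Cxcr4+ macrophages and 79.6 CPM in the control (-1.23, SE 0.19, adjusted p = 0.00507), and Psmb2 had 75.6, 68.0 and 63.2 CPM after APAP and 143 CPM in the control (-1.05, SE 0.12, adjusted p = 0.00202). Psmb4 had 90.7, 73.9 and 66.8 CPM after APAP and 149.6 CPM in the control (-0.96, SE 0.17, adjusted p = 0.00725), and lost its call with the length and GC offset (adjusted p = 0.0603). Psmb1 had 87.0, 83.3 and 78.8 CPM after APAP and 138 CPM in the control (-0.74, SE 0.09, adjusted p = 0.00283). Among the APAP libraries, all 4 were highest in the first and lowest in the third. The control lay above every APAP library for all 4, where this held for 39.2% of all genes tested. Among the 14 constitutive core subunits 13 fell, where 18.9% of all genes tested fell. The median was -0.91, against -1.14 for the 5 inducible genes. With the length and GC offset 9 of the 14 fell, with a median of -0.56, and 5 of the 5 inducible genes fell, with a median of -0.73. Over all genes, 16.1% fell in the same fit.

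Transcripts of the 19S cap lay nearer to the control than those of the core. Of its 17 subunits in the list, 10 fell, 0 rose and 7 did not pass, with a median log2 fold change of -0.49. Over all genes tested, 18.9% fell and 25.4% rose. In read counts the 14 core subunits stood to these 17 as 0.734, 0.748 and 0.725 to 1 in APAP Cxcr4+ macrophages and as 0.9997 to 1 in the control, a log2 difference of -0.44 against an SD of 0.02 (exact permutation p = 0.25). Transcripts of the cap are longer (median 1636 bases, against 1162 for the core), and with the length and GC offset the medians were -0.28 for the cap, where 3 of 17 fell, and -0.56 for the core. That count for the cap is near the 16.1% of all genes that fell in the same fit. The difference between core and cap in the offset fit was not tested.

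Among the ATPases that unfold substrates, 5 of 6 fell, where 18.9% of all genes tested fell. Psmc5 had 46.2, 37.5 and 39.6 CPM in APAP Cxcr4+ macrophages and 70.1 CPM in the control (-0.77, SE 0.13, adjusted p = 0.00697), and Psmc4 had 63.9, 49.9 and 53.2 CPM after APAP and 94.6 CPM in the control (-0.77, SE 0.15, adjusted p = 0.00973). Psmc1 had 113, 110.3 and 113 CPM after APAP and 162 CPM in the control (-0.53, SE 0.08, adjusted p = 0.00487). Psmc6 stood apart, with 49.3, 44.7 and 47.5 CPM after APAP and 46.6 CPM in the control, inside the APAP range (0.02, SE 0.10, adjusted p = 0.906). Psmc2 and Psmc3 fell by 0.69 and 0.60 on the log2 scale, Psmc3 not without the second APAP library (adjusted p = 0.0909). With the length and GC offset 1 of the 6 fell, Psmc2, which is near the 16.1% of all genes.

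Of the 11 cap subunits without ATPase activity, 5 fell and 6 did not pass, where 18.9% of all genes tested fell. With the length and GC offset 2 of the 11 fell, which is near the 16.1% of all genes. Psmd13, a structural subunit of the lid, had 51.8, 42.6 and 40.5 CPM in APAP Cxcr4+ macrophages and 83.8 CPM in the control (-0.90, SE 0.15, adjusted p = 0.006). Psmd4, a receptor for ubiquitin chains, had 67.8, 62.4 and 64.0 CPM after APAP and 111 CPM in the control (-0.77, SE 0.09, adjusted p = 0.0023). Both kept a call with the length and GC offset (-0.68 and -0.34, adjusted p = 0.0202 and 0.0379). Psmd14, the deubiquitinase that removes chains from substrates, had 43.5, 32.6 and 30.9 CPM after APAP and 40.0 CPM in the control (-0.17, SE 0.20, adjusted p = 0.527). Psmd1, a scaffold for ubiquitin receptors, had 75.5, 63.4 and 61.7 CPM after APAP and 72.2 CPM in the control (-0.11, SE 0.14, adjusted p = 0.534). In both of these the control lay between the first APAP library and the other two. Psmd3, Psmd6 and Psmd7 fell by 0.49, 0.44 and 0.66 on the log2 scale. None of the 3 passed with the length and GC offset (adjusted p = 0.0669, 0.217 and 0.0604), and Psmd3 and Psmd6 did not pass without the second APAP library (adjusted p = 0.08 and 0.0957). Psmd2, Psmd8, Psmd11 and Psmd12 had values of -0.29 to -0.21 that did not pass. Their control value lay above every APAP library, as it did for 39.2% of all genes tested.

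Chaperones that build the complex mostly fell, 2 of 3 for the cap and 3 of 4 for the core, where 18.9% of all genes tested fell. For the cap, Psmd10 had 17.1, 15.9 and 16.7 CPM in APAP Cxcr4+ macrophages and 32.3 CPM in the control (-0.96, SE 0.11, adjusted p = 0.00224), and Psmd9 had 19.04, 17.9 and 17.97 CPM after APAP and 30.3 CPM in the control (-0.73, SE 0.11, adjusted p = 0.00483). Psmd5, another chaperone of this kind, had 24.8, 21.6 and 21.7 CPM after APAP and 21.8 CPM in the control, so its groups overlapped (0.06, SE 0.13, adjusted p = 0.75). For the core, Psmg4 had 10.1, 10.4 and 10.8 CPM after APAP and 23.3 CPM in the control (-1.16, SE 0.12, adjusted p = 0.00197). Its partner Psmg3 had 3.28, 3.09 and 4.08 CPM after APAP and 7.23 CPM in the control (-1.05, SE 0.22, adjusted p = 0.0138). The pair Psmg1 and Psmg2 helps to close the alpha ring. Psmg1 had 7.74, 7.33 and 8.65 CPM after APAP and 13.0 CPM in the control (-0.72, SE 0.16, adjusted p = 0.0166), and Psmg2 had 7.44, 5.62 and 5.03 CPM after APAP and 8.70 CPM in the control (-0.53, SE 0.25, adjusted p = 0.133). Psmg4, Psmd9 and Psmd10 fell also with the length and GC offset, where 16.1% of all genes fell. Psmg1, Psmg2 and Psmg3 did not pass with it. Without the second APAP library Psmg1 and Psmg3 did not pass either (adjusted p = 0.0677 and 0.054), where 11.0% of all genes fell.

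The members known from single tissues were scarce. Psma8, an alpha subunit known from testis and similar to Psma7, had 2.63, 1.899 and 2.05 CPM in APAP Cxcr4+ macrophages and 4.14 CPM in the control (-0.92, SE 0.27, adjusted p = 0.0368). Whether its reads belong to related sequences was not tested, and its adjusted p was 0.104 without the second APAP library, 0.0514 without the last one and 0.0586 with the length and GC offset. Psmb11, a catalytic subunit known from the thymus cortex, had 2, 2 and 0 counts after APAP and 0 in the control, which allows up to 3 counts there. It did not pass the filter and was not tested.

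**Figure D3:**
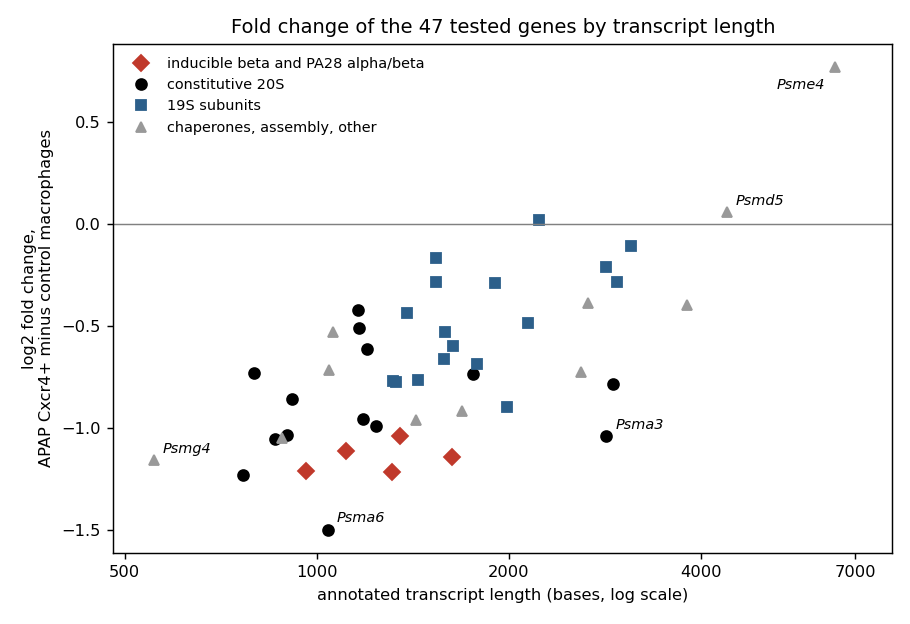
Log2 fold change, APAP Cxcr4+ minus control macrophages, of each of the 47 tested genes against the annotated length of its transcript on a log scale. Longer transcripts lie higher (Spearman's rho 0.618), from Psmg4 at 555 bases to Psme4 at 6491 bases, while Psma6 and Psma3 lie under genes of like length.

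Within the APAP group, 42 of the 47 members were highest in the first library, against 36.9% of all genes tested. The median log2 ratio of the members to the control was -0.60 in the first APAP library, -0.83 in the second and -0.79 in the third. Members varied among these libraries by a median coefficient of variation of 10.1%, from 1.28% for Psmc1 to 21.7% for Psmb6, and all genes tested by a median of 12.1%. Psmb6, Psmd14, Psmb3, Psmd8 and Psme2 are examples of genes with a first library well above the other two.

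**Figure D4:**
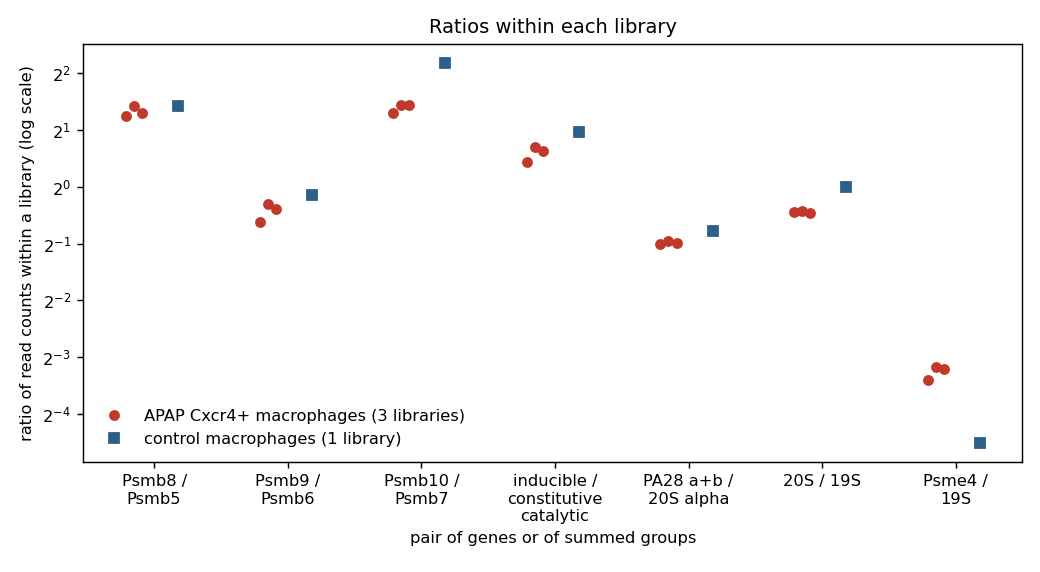
Ratios of read counts within each library, on a log axis, for the 3 pairs of inducible over constitutive subunits, their sums, Psme1 plus Psme2 over the 7 alpha subunits, the 14 constitutive core over the 17 cap subunits, and Psme4 over the cap. Circles are the 3 APAP Cxcr4+ libraries and squares the control; the control is above the APAP libraries in each ratio except Psme4 over the cap, with the widest gap among the subunit pairs for Psmb10 over Psmb7 (2.46 to 2.72, against 4.54).

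Factors that assemble or switch on the proteasome did not move as one. Of 7 genes of its transcriptional control, 3 fell and 1 rose (median -0.07), where 18.9% of all genes fell and 25.4% rose. Nfe2l1 is the transcription factor that restores proteasome genes when the complex is inhibited. It had 146, 146.0 and 147 CPM in APAP Cxcr4+ macrophages and 153 CPM in the control (-0.07, SE 0.08, adjusted p = 0.546). With the length and GC offset, however, Nfe2l1 fell (-0.40, adjusted p = 0.0165). Ddi2, the protease that activates it, had 203, 196 and 223 CPM after APAP and 109 CPM in the control and rose (0.93, SE 0.11, adjusted p = 0.00263), but not with the length and GC offset (0.13, adjusted p = 0.373). The partner factor Mafk and the import factor Akirin2 fell (-0.59 and -0.44, adjusted p = 0.0108 and 0.0177), as did the stress factor Nfe2l2 (-0.37, adjusted p = 0.0167). Akirin2 did not pass with the length and GC offset (-0.21, adjusted p = 0.164).

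Of 10 listed assembly factors and partners 9 were tested, of which 5 fell and 1 rose (median -0.43). Over all genes tested, 18.9% fell and 25.4% rose. Pomp, which matures the 20S core and the immunoproteasome, had 90.6, 75.7 and 71.2 CPM in APAP Cxcr4+ macrophages and 169 CPM in the control (-1.10, SE 0.14, adjusted p = 0.003). Sem1, a small lid subunit, had 125, 101 and 105 CPM after APAP and 209 CPM in the control (-0.92, SE 0.13, adjusted p = 0.00418). Both lay within the range of the core subunits. Uchl5, a deubiquitinase of the cap, was at -0.43 (adjusted p = 0.049) and did not pass with the length and GC offset (adjusted p = 0.081). Ecpas, an adaptor of the proteasome with a transcript of 7045 bases, rose (0.53, SE 0.09, adjusted p = 0.00801), but not with the length and GC offset (-0.11, adjusted p = 0.374).

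Of 15 genes that supply or carry ubiquitin, 4 fell, 2 rose and 9 did not pass (median -0.23), where 18.9% of all genes fell and 25.4% rose. Ubb, which encodes a chain of ubiquitin units, had 903, 937 and 923 CPM in APAP Cxcr4+ macrophages and 1777 CPM in the control (-0.95, SE 0.10, adjusted p = 0.00179), and Rps27a, a ubiquitin fused to a ribosomal protein, had 214, 259 and 213 CPM after APAP and 384 CPM in the control (-0.75, SE 0.13, adjusted p = 0.00816). In the fit with the length and GC offset Ubb fell (-0.57, adjusted p = 0.0112) and Rps27a did not pass (-0.31, adjusted p = 0.131). Reads of both may be shared with related sequences. Uba6, an enzyme that activates ubiquitin, had 30.7, 31.6 and 31.7 CPM after APAP and 14.9 CPM in the control (1.07, SE 0.11, adjusted p = 0.00178). Ubqln2, a shuttle to the proteasome, had 64.8, 57.9 and 60.1 CPM after APAP and 38.3 CPM in the control (0.67, SE 0.11, adjusted p = 0.00552). These last genes were above the control in all 3 APAP libraries, as were 45.7% of all genes tested. Both also rose with the length and GC offset (0.46 and 0.53, adjusted p = 0.0242 and 0.0155).

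Interferon gamma induces Irf1, a transcription factor that acts on the inducible subunits. Of 15 tested genes of that axis, 5 fell and 4 rose (median -0.39), where 18.9% of all genes fell and 25.4% rose. Irf1 had 167, 101 and 128 CPM after APAP and 245 CPM in the control (-0.89, SE 0.25, adjusted p = 0.0312), but did not pass with the length and GC offset (-0.72, adjusted p = 0.07). The chemokine Cxcl9, a target of the pathway, had 17.7, 8.99 and 16.1 CPM after APAP and 40.6 CPM in the control, the lowest log2 fold change of the list (-1.51, SE 0.33, adjusted p = 0.0156). Nlrc5, a transactivator of MHC class I and Psmb9, had 99.9, 70.8 and 70.7 CPM after APAP and 46.2 CPM in the control (0.80, SE 0.23, adjusted p = 0.0342), and the class II transactivator Ciita had 123, 116 and 101 CPM after APAP and 51.8 CPM in the control (1.13, SE 0.14, adjusted p = 0.0026). Both of these were above the control in all 3 APAP libraries, as were 45.7% of all genes tested. With the length and GC offset Ciita rose (0.64) and Nlrc5 did not pass (0.17, adjusted p = 0.571).

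Among 11 genes that load MHC class I with proteasome products, 6 fell and 0 rose (median -0.55), where 18.9% of all genes fell and 25.4% rose. With the length and GC offset 8 of the 11 fell (median -0.59), against 16.1% of all genes. H2-K1 and H2-D1, class I heavy chains whose reads may be shared with related genes, were at -1.15 (SE 0.10, adjusted p = 0.00126) and -0.97 (SE 0.11, adjusted p = 0.00219). Tapbp and Tapbpl, which edit the peptides, were at -0.55 and -0.55 (adjusted p = 0.00601 and 0.0116). The peptide transporter Tap1, the neighbour of Psmb9, had 167, 127 and 122 CPM in APAP Cxcr4+ macrophages and 172 CPM in the control, and did not pass (-0.31, SE 0.19, adjusted p = 0.217). In the mouse annotation, 5.8% of the exon bases of Psmb9 overlap Tap1 on the opposite strand, 14.7% of those of Psmb8 overlap an antisense gene and 11.8% of those of Psmb7 overlap Nek6; without a stated strand setting such reads cannot be told apart.

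Markers of other cells moved with the groups in these bulk samples. Fewer cells of a type and less RNA per cell cannot be told apart there. Over all genes tested, 18.9% fell and 25.4% rose. Of 10 B cell markers 10 rose, with a summed level of 325, 507 and 375 CPM in APAP Cxcr4+ macrophages and 61.8 CPM in the control, where Cr2 was at 0. Of 10 T cell markers 7 rose (111 to 149 CPM after APAP, 62.9 CPM in the control), of 8 NK cell markers 5 rose and 1 fell (62.9 to 84.5 CPM after APAP, 64.0 CPM in the control), and of 8 plasmacytoid dendritic cell markers 7 rose (184 to 213 CPM after APAP, 94.2 CPM in the control, where Siglech was at 0). Of 7 conventional dendritic cell markers 6 rose and 1 fell, with 87.5 to 119.7 CPM after APAP and 76.6 CPM in the control. Of 9 tested neutrophil markers 5 rose (61.6 to 165 CPM over all 12 after APAP, 45.8 CPM in the control, where Ly6g, Mpo, Elane, Ngp, Ltf and Camp were at 0). In the control, 1 gene made up most of the sum in several lists. It was Klrk1 for NK cells (53.3 CPM) and Tcf4 for plasmacytoid dendritic cells (88.7 CPM). For conventional dendritic cells it was Batf3 (57.3 CPM) and for neutrophils Mmp9 (40.2 CPM). Klrk1 and Batf3 fell, Tcf4 rose and Mmp9 did not pass, so these sums do not follow most of their markers. Of 12 hepatocyte markers 11 fell (1483 to 2335 CPM after APAP, 3663 CPM in the control), and of 7 endothelial markers 3 fell and 1 rose (876 to 1288 CPM after APAP, 1909 CPM in the control). In every library most of the hepatocyte sum came from Trf (2680 CPM in the control). Most of the endothelial sum came from Cdh5 (1268 CPM in the control). Which cells the reads of these genes came from was not tested. The part of the marker shifts in the proteasome values was not tested.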

How the data were processed

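The deposited values were whole-number read counts per Ensembl gene, which the authors had not normalised. The submitters' processing notes name HISAT2, Subread and genome build mm39; their versions and roles, the annotation and the strand setting are not given in the sources. Symbols from gene tables were matched to 28926 of 29247 IDs (98.9%). APAP columns have no replicate numbers, and 1 to 3 stand for their order in the table.

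Counts were filtered with filterByExpr (minimum count 10, minimum total 15), scaled by TMM (factors 1.04, 1.03 and 1.03 for the APAP libraries, 0.90 for the control) and tested with the quasi-likelihood F test of edgeR 4.0.16 in R 4.3.3 on 18715 genes, without covariates (2 residual and 3.80 prior degrees of freedom; biological coefficient of variation 0.162). P-values were adjusted by Benjamini-Hochberg and called at 0.05. In a simulation with counts for 18026 genes, where the control varied like the APAP libraries, the test found 57.6% of the 66 genes with a 2-fold change, 81.0% of the 63 with a 4-fold change and 93.4% of the 61 with an 8-fold change. Of 17836 genes without a change it called 27. Far fewer genes changed there than were called in the data, where 18.9% fell and 25.4% rose. The rates found need therefore not hold for the data.

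Transcript lengths and GC content came from the principal transcript of each gene in GENCODE M21, which belongs to GRCm38. The loess trend of log2 fold change over both was used as an offset in one alternative. Ratios were taken on counts within a library and compared by an exact permutation test. The other alternatives were DESeq2 1.42.0 (size factors and Wald test), upper-quartile factors, other count filters, limma-voom (limma 3.58.1), glmTreat against a log2 fold change of 0.5, leaving out each APAP library and, for ratios, a pseudocount of 0.5. Paaf1, a cap assembly gene of the lists, was not analysed here.

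Values in every library are given for the inducible subunits, their counterparts, the Psme genes, Psmf1 and, in each other role, the 2 members with the highest and the 2 with the lowest log2 fold change. Of the other lists, the 2 highest and 2 lowest called genes and Irf1, Nlrc5, Tap1, Pomp and Nfe2l1 are named; 1 further gene of that rule is not reported here. The members, lists and tests were chosen with earlier results of these data known.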

Additional observations from a re-analysis of the deposited data

How the results depend on the processing

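No paired analysis was possible because the control is a single library whose label carries no replicate number. The counts of members that fell (35) and rose (1) moved by more than 1.5 times under 2 alternatives: 18 fell when glmTreat tested for changes beyond 0.5 on the log2 scale (7.99% of all genes fell), and 22 fell and 0 rose with the length and GC offset. That offset also took the median log2 fold change from -0.73 to -0.39 over the members, from -1.14 to -0.73 over the 5 inducible genes, from -0.91 to -0.56 over the constitutive core and from -0.49 to -0.28 over the cap. Of single members, 15 lost and 1 gained a call with it, and 17 lost theirs against 0.5. Without each APAP library in turn, 25 to 43 members fell and 1 rose, and the medians ran from -0.77 to -0.69, -1.22 to -1.08, -1.005 to -0.82 and -0.54 to -0.43 in the same order.

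DESeq2, limma-voom, other scaling and no filter moved no member across the threshold; a filter of 5 CPM in 1 library left Psma8 untested, so that 34 fell. Members near 0 changed sign. Psmc6 (0.02) was at -0.009 with upper-quartile factors, at -0.064 with the offset and at -0.018 to 0.054 without each APAP library in turn. Psmd5 (0.06) was at -0.276 with the offset and at -0.013 to 0.104 without each library, and Psmd8 (-0.29) was at 0.076 with the offset. None of these values passed the test.

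Of the partner genes of the ubiquitin and proteasome pathway 4 rose and 12 fell, against 2 and 4 in the test against 0.5, and 2 rose with the offset. Without each APAP library in turn 3 to 5 rose and 8 to 16 fell. Of the interferon gamma genes 1 rose and 1 fell against 0.5, 1 rose with the offset, and 2 to 4 rose and 3 to 9 fell without each library. Of the MHC class I loading genes 3 fell against 0.5, and 4 to 10 without each library, with 0 rising. The cause of these shifts was not tested. Over all genes, 18.9% fell and 25.4% rose in the main test, and 16.1% and 17.8% with the offset. Without the first APAP library 22.7% fell and 28.1% rose, and without the second 11.0% and 16.2%. Against 0.5, 7.99% of all genes fell, and the 1 of 15 tested interferon gamma genes that fell is near that share. The ratios kept their sign under each alternative run: without each library they differed by -0.82 to -0.74 for Psmb10 over Psmb7, -0.36 to -0.20 for Psmb9 over Psmb6, -0.15 to -0.07 for Psmb8 over Psmb5, -0.44 to -0.31 for their sums and -0.21 to -0.19 for the PA28 genes. In the fit with the offset, an alternative chosen after the data were seen, the 3 pairs differed by -0.68, -0.40 and -0.27 in that order. The single control limits every comparison; depth limits Psmb11 and Psma8.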

Other observations

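Among rows whose symbols begin with Psm but fall outside the naming pattern, the processed pseudogene Psmb6-ps2 had 7, 6 and 6 counts after APAP and 1 in the control, and Psmb6-ps had 0, 0 and 1 after APAP and 0 in the control. Psmc3ip, a recombination factor and not a subunit, had 56, 46 and 33 counts after APAP and 52 in the control.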
